A study of Mus musculus with 27 samples.

Results

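The T cell receptor complex and its proximal signalling machinery were described here through 10 transcripts: Cd3d, Cd3e, Cd3g and Cd247 (the CD3 chains and the zeta chain), Cd8a and Cd8b1 (the CD8 coreceptor), Lck, Zap70, Lat and Ptprc. They were taken by symbol from the 47729 mouse genes of the count table, all 10 were present, and all 10 were among the 14059 genes tested. The table held RNA-seq read counts for 27 libraries of CD8+ T cells from tumours of MC38, a mouse colon adenocarcinoma line. The sort used antibodies to the pan-leukocyte protein CD45, to CD3 and CD8, and to KLRG1 and PD-1, of which the last pair made the groups, so the proteins of Ptprc, of the CD3 genes and of the CD8 genes were sort markers in every library alike. The groups were Tri PD1+KLRG1+ (n = 5), Tri PD1+KLRG1- (n = 5), Tri PD1-KLRG1+ (n = 4), Tri PD1-KLRG1- (n = 5), Iso PD1-KLRG1+ (n = 4) and Iso PD1-KLRG1- (n = 4). Tri is the combined treatment that the series text calls TCT, with no components named in the labels, and Iso is the isotype control. All groups carried the MC38 tumour, no mouse strain, genotype or age is given, and PD1+ cells were sequenced under Tri alone. Separate mice are not stated for separate libraries, so p-values refer to the spread between these samples.

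On a T cell, the antigen-binding receptor chains sit in the membrane with the CD3 chains and a zeta dimer, which carry the tyrosine motifs that the receptor itself lacks. CD8 binds MHC class I and brings the kinase Lck, which phosphorylates these motifs. ZAP-70 docks there and phosphorylates the scaffold LAT, on which the downstream pathways assemble, and the phosphatase CD45, encoded by Ptprc, sets how active Lck is. Chronic antigen exposure in tumours is known to go with PD-1 on CD8+ T cells, and PD-1 acts on this same proximal step.

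Library totals lay between 6991521 and 26284630 counts in 26 libraries and came to 93198 in Iso PD1-KLRG1+ replicate 3, where single members had 47 to 345 counts. The 4 Iso PD1-KLRG1+ libraries stood apart: they held 5832 to 9427 genes with a count, against at least 10608 in each other library, and their replicates correlated at r = 0.539 to 0.658 (log2 scale, across genes) against 0.73 or more within other groups. Markers of other cells reached 3373 CPM (counts scaled to one common library total) for the 9 myeloid and 3155 CPM for the 7 tumour and stroma genes among those 4 libraries. Of the CD8 T markers Cd3e, Cd8a, Cd8b1 and Trac, none was at 0 in any group, while Cd4 had no count in 3 groups and averaged at most 2.12 CPM in the others. The group means of the sort genes followed the labels: Pdcd1 averaged 960.2 and 1269 CPM in the PD1+ groups and 55.32 to 117.5 CPM in the PD1- groups. Klrg1 averaged 94.21 to 245.3 CPM in the KLRG1+ groups and 1.764 to 19.25 CPM in the KLRG1- groups. For 9 of 27 libraries the description carried an RNA number, and this difference in naming was a term of the model.

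All 10 genes had counts in every library. Per kilobase of annotated exon, the median over 27 libraries was highest for Cd8b1 at 1273 CPM per kb, followed by Lck (680.9), Cd3d (482.9), Cd3g (423.9), Cd8a (384.1), Cd3e (285.1), Lat (221), Ptprc (105.4), Zap70 (100.9) and Cd247 (63.9). Zap70 and Ptprc were close neighbours in that order, with group means of 122 ± 28.58 and 89.41 ± 18.29 CPM per kb in Tri PD1+KLRG1+ libraries (SD, n = 5). Across libraries, no member varied by more than 3.8 times between its lowest and highest CPM (Cd247), and the smallest such range was 2.45 times (Cd8b1). By the GENCODE M21 annotation of GRCm38, used for positions because the authors' build is not given in the sources used here, 3 CD3 genes lie side by side on chromosome 9. Cd3g (ENSMUSG00000002033, chr9:44969572-44980431, minus strand) and Cd3d (ENSMUSG00000032094, chr9:44981786-44987339, plus strand) point away from each other with starts 1355 bases apart, and Cd3e (ENSMUSG00000032093, chr9:44998740-45009627, minus strand) follows. Cd8b1 (ENSMUSG00000053044, chr6:71322788-71337494) ends 35933 bases before Cd8a (ENSMUSG00000053977, chr6:71373427-71379173), both on the plus strand. Lat (ENSMUSG00000030742) is at chr7:126363824-126369570 on the minus strand and Lck (ENSMUSG00000000409) at chr4:129548344-129573641 on the minus strand. Chromosome 1 holds Zap70 (ENSMUSG00000026117, chr1:36761798-36782818, plus strand), Cd247 (ENSMUSG00000005763, chr1:165788681-165877277, plus strand) and Ptprc (ENSMUSG00000026395, chr1:138062861-138175708, minus strand). The exons of Pou2f1, on the opposite strand, cover 56.4% of the Cd247 exon bases. Strand use in counting is not given in the sources used here, so reads of these 2 genes may not be told apart, and Pou2f1 itself reached at most 49.21 CPM.

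The 250 bases before the RefSeq start of 6 genes are shown because 4 of them (Cd3g, Cd8a, Lat, Ptprc) differed between PD1+ and PD1- cells and the other two, Cd3d and Cd3e, are the chromosomal neighbours of Cd3g. They come from RefSeq promoters of GRCm38.p6, which had entries for 9 of the 10 members (Cd8b1 had none), and run 5′ to 3′ on the gene's strand. RefSeq starts differ from the GENCODE starts given above for 3 of them: the Ptprc window lies inside the GENCODE gene, and the Cd3e and Lat windows overlap its first bases. Capitals mark matches, on either strand, to an ETS core (GGAAGT), a RUNX core (TGTGGT) or an E-box (CACCTG), words bound by factor families known in T cells.
Cd3g, chr9:44980432-44980681: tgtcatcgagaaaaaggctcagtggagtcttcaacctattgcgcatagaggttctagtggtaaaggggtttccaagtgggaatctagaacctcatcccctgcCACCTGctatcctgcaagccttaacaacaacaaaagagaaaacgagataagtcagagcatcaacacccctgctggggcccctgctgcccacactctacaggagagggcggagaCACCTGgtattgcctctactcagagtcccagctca
Cd3d, chr9:44981536-44981785: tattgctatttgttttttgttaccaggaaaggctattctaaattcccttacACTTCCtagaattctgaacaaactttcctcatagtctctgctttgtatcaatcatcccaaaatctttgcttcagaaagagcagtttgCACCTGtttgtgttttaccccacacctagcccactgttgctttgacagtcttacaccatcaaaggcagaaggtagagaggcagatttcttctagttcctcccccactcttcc
Cd3e, chr9:45009612-45009861: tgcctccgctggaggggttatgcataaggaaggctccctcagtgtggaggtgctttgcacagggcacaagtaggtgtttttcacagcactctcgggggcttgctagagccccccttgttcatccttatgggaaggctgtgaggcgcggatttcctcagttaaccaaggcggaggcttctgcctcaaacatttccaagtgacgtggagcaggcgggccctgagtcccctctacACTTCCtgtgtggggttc
Cd8a, chr6:71373177-71373426: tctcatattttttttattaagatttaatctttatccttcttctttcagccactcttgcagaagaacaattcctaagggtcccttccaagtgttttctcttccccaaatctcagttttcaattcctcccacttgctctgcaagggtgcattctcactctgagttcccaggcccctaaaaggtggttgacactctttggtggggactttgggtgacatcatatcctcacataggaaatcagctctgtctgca
Lat, chr7:126369569-126369818: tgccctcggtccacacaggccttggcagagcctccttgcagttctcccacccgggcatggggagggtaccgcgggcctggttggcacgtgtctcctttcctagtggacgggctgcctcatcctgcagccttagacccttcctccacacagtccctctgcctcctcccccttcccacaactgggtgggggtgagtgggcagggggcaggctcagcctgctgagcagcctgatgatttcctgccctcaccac
Ptprc, chr1:138175306-138175555, the first of its 2 entries: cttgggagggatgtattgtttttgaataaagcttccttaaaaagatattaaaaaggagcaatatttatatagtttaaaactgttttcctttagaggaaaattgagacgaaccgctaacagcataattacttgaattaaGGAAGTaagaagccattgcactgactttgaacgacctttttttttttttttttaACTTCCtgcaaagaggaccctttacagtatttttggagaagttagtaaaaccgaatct
The Cd3g window held 2 E-box words, 148 and 35 bases before the start, and no ETS word, while Cd3d held 1 of each. Cd3e held 1 ETS word 18 bases before its RefSeq start, and Ptprc held 2 ETS words. Neither Cd8a nor Lat held any of the 3 words. Among 32817 RefSeq windows of this length, 19.7% held the ETS word, 14% the RUNX word and 17.2% the E-box word, so a match is common and is given as a description of the letters only.

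The clearest differences in the receptor complex followed the PD-1 gate. Within Tri, PD1+ cells held more Cd3g and Cd8a transcript and less Lat and Ptprc transcript than PD1- cells, in KLRG1+ and in KLRG1- cells. These 4 of the 10 genes passed the test (edgeR quasi-likelihood, Benjamini-Hochberg adjusted p under 0.05 over all 14059 genes) in each gate, against 1.2% of all genes in KLRG1+ cells (0.491% higher and 0.711% lower) and 1.56% in KLRG1- cells (0.619% higher and 0.939% lower). The same 4 genes were called in both comparisons, and all 10 members had the same sign in both. The comparisons share no library, but they come from the same fit with a shared estimate of spread. Whether the gates share mice is not stated. Libraries of PD1+ and PD1- cells did not overlap in CPM for 4 of 10 members in KLRG1+ cells (4.72% of all genes) and for 6 of 10 in KLRG1- cells (8.44% of all genes). The shares over all tested genes were not matched for level, and the members had medians of 302 to 1994 CPM over the 27 libraries. The members were chosen with earlier results of these data known. Over the 10 members the median log2 fold change was -0.12 and -0.19, against -0.01 and 0.06 over all genes. In sorted bulk populations, fewer cells of a type and less RNA per cell cannot be told apart.

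**Figure D1:**
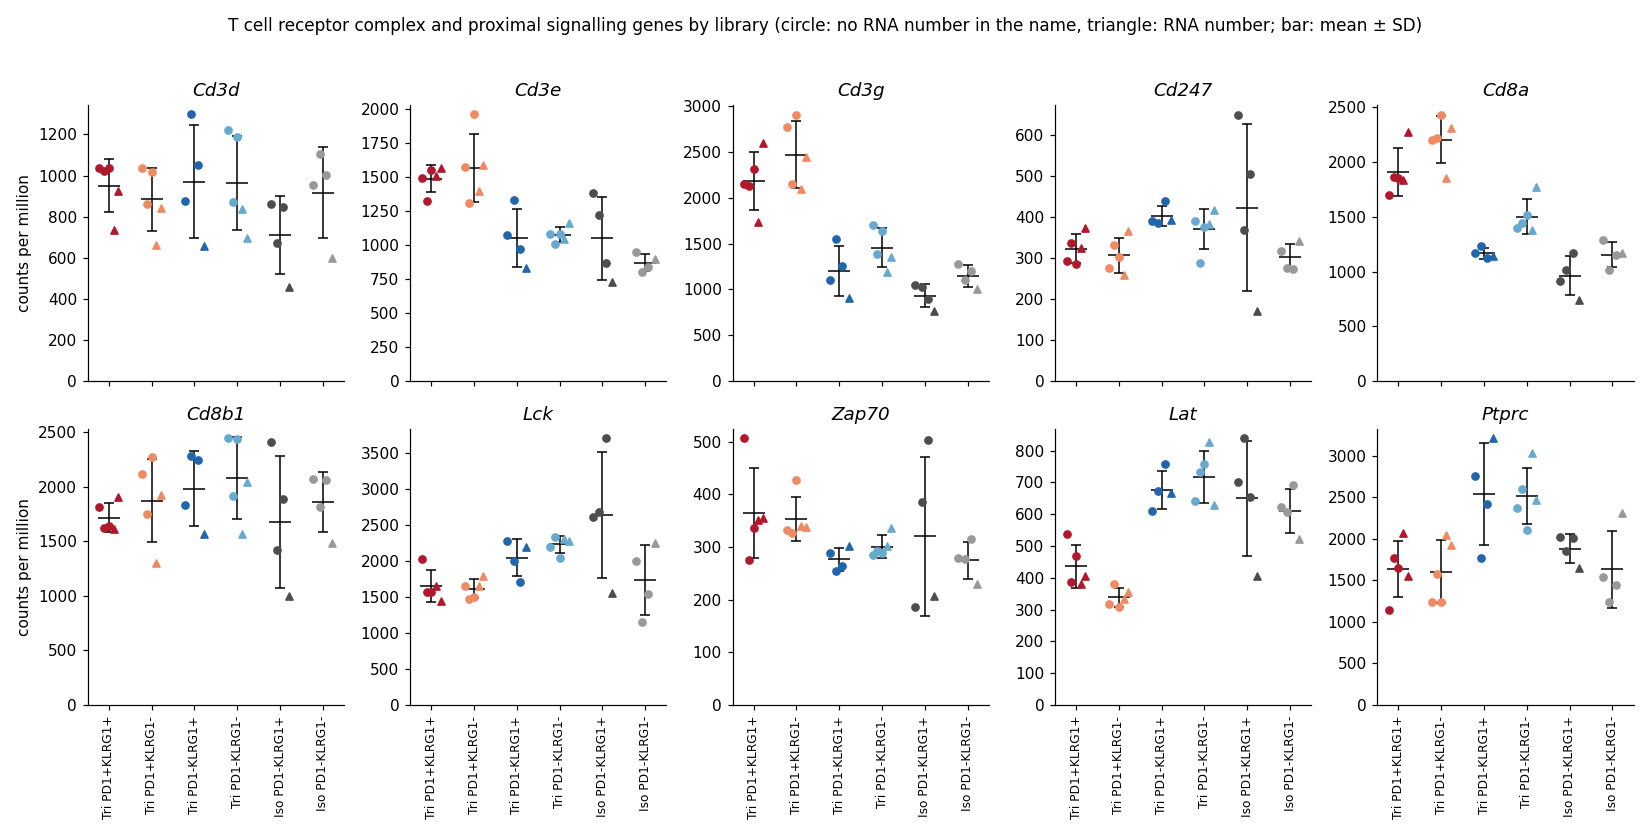
CPM of the 10 genes in each of 27 libraries, by group, with the mean and SD as bars; triangles are libraries with an RNA number in their description. Cd3g and Cd8a sit highest in the 2 PD1+ groups at the left, and Lat is lowest there, while Cd8b1 and Cd3d spread over like ranges in all groups.

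Among the CD3 chains, which carry the signalling motifs, Cd3g differed most. It stood at 2151, 2127, 2317, 1735 and 2602 CPM in Tri PD1+KLRG1+ libraries, against 1104, 1549, 1261 and 902.6 CPM in Tri PD1-KLRG1+ libraries. Every PD1+ library lay above every PD1- library, and the log2 fold change was 0.82 ± 0.16 (SE, edgeR adjusted p = 0.00455). In KLRG1- cells Cd3g stood at 2778, 2146, 2903, 2092 and 2440 CPM in PD1+ libraries, against 1706, 1386, 1634, 1195 and 1358 CPM in PD1- libraries. Again the groups did not overlap, and Cd3g was 1.64-fold higher in PD1+ cells (log2 fold change 0.71 ± 0.14, edgeR adjusted p = 0.00524). The Cd3g call held in 9 of 9 and 10 of 10 fits that left out 1 library, and in 7 and 8 of 10 other settings. It was lost within each name series in both gates and, in KLRG1+ cells, with only the groups compared (adjusted p = 0.051).

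Cd3e, encoding the chain that pairs with the gamma and the delta chain, pointed the same way without passing the test. In KLRG1- cells it was at 1571, 1307, 1962, 1394 and 1585 CPM in PD1+ libraries, against 1080, 1006, 1079, 1046 and 1163 CPM in PD1- libraries, with no overlap. Its log2 fold change was 0.49 ± 0.16 (95% interval 0.16 to 0.82, edgeR adjusted p = 0.151) in KLRG1- cells and 0.44 ± 0.17 (0.08 to 0.79, adjusted p = 0.269) in KLRG1+ cells, where the libraries overlapped. DESeq2 put Cd3e under 0.05 in both gates (adjusted p = 0.00302 in KLRG1- cells and 0.00669 in KLRG1+ cells), and over the 10 settings tried the adjusted p ran from 4.64e-05 to 0.778 and from 0.00669 to 0.757. Cd3d, the delta chain transcribed away from Cd3g, showed no such difference. It averaged 951 ± 130.4 CPM in Tri PD1+KLRG1+ and 970.8 ± 273 CPM in Tri PD1-KLRG1+ libraries (SD, n = 5 and 4), a log2 fold change of -0.02 ± 0.16 with a 95% interval of -0.35 to 0.32. In KLRG1- cells its averages were 884.4 ± 152.8 CPM in PD1+ libraries and 963.2 ± 230.1 CPM in PD1- libraries (SD, n = 5 each), with an interval of -0.48 to 0.15.

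Cd247, encoding the zeta chain, had its values on the other side of 0. In KLRG1+ cells it was at 292.5, 337.7, 286.1, 325.7 and 374.3 CPM in PD1+ libraries, against 390, 385.6, 438.6 and 393.5 CPM in PD1- libraries. These groups did not overlap, but the difference did not pass the test (-0.39 ± 0.22, edgeR adjusted p = 0.584). In KLRG1- cells the groups overlapped, at 258.1 to 365.1 CPM in PD1+ and 288.7 to 416.7 CPM in PD1- libraries (-0.33 ± 0.21, adjusted p = 0.825).

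Of the coreceptor pair, the alpha chain changed and the beta chain did not pass the test. Cd8a, whose product can also form a dimer with itself, stood at 1699, 1868, 1852, 1839 and 2279 CPM in Tri PD1+KLRG1+ libraries, against 1168, 1235, 1125 and 1142 CPM in Tri PD1-KLRG1+ libraries. In KLRG1- cells its values were 2203, 2225, 2435, 1852 and 2314 CPM in PD1+ libraries, against 1397, 1440, 1516, 1377 and 1772 CPM in PD1- libraries. The PD1+ libraries were above the PD1- libraries in both gates without overlap. Cd8a was 1.54-fold higher in KLRG1+ cells (log2 fold change 0.63 ± 0.12, edgeR adjusted p = 0.0059) and 1.42-fold higher in KLRG1- cells (0.50 ± 0.11, adjusted p = 0.0165). The second call was lost without Tri PD1+KLRG1- replicate 1, Tri PD1-KLRG1- replicate 1 or Tri PD1-KLRG1- replicate 4 (adjusted p up to 0.0671) and with no filter on low counts (0.0572), while the log2 fold change lay between 0.40 and 0.61 over all settings tried. Cd8b1, encoding the beta chain of the conventional heterodimer, averaged 1718 ± 133.7 CPM in Tri PD1+KLRG1+ and 1983 ± 341.2 CPM in Tri PD1-KLRG1+ libraries (SD, n = 5 and 4). Its log2 fold change was -0.21 in both gates, with 95% intervals of -0.58 to 0.15 and -0.54 to 0.13.

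**Figure D2:**
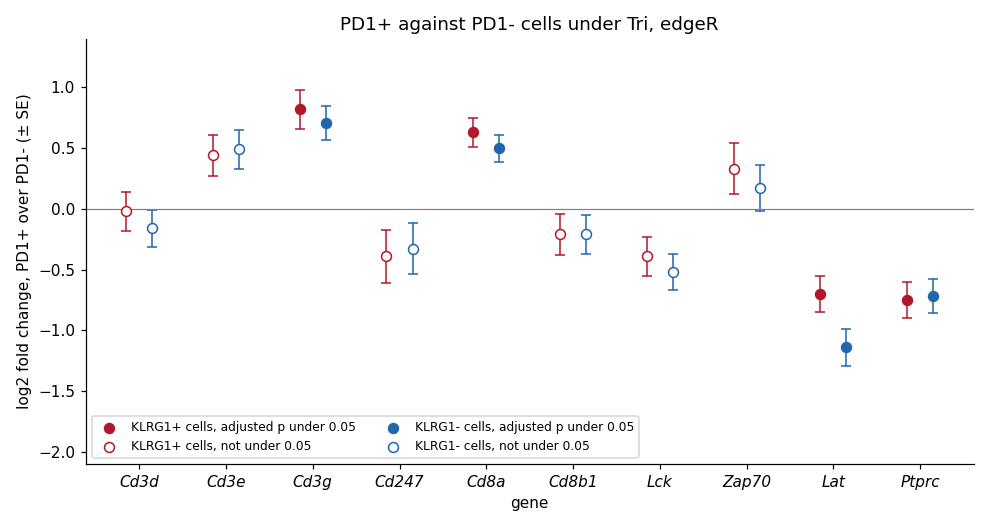
Log2 fold change of each of the 10 genes in PD1+ over PD1- cells under Tri, with SE, for KLRG1+ and KLRG1- cells; filled points have an edgeR adjusted p under 0.05. Cd3g and Cd8a are filled above 0 and Lat and Ptprc below 0 in both gates, with Lat at -0.70 in KLRG1+ and -1.14 in KLRG1- cells.

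The 2 kinases did not pass the test in either gate. Lck, which phosphorylates the CD3 and zeta motifs, was at 1655, 1471, 1493, 1657 and 1786 CPM in Tri PD1+KLRG1- libraries, against 2188, 2331, 2044, 2308 and 2283 CPM in Tri PD1-KLRG1- libraries. The 2 groups did not overlap, and the log2 fold change was -0.52 ± 0.15 (edgeR adjusted p = 0.0867, between 6.68e-05 and 0.771 over 10 other settings). In KLRG1+ cells Lck averaged 1655 ± 221.4 CPM in PD1+ and 2044 ± 255 CPM in PD1- libraries (SD, n = 5 and 4), with a log2 fold change of -0.39 ± 0.16 (adjusted p = 0.312). Zap70, the kinase recruited to the phosphorylated motifs, averaged 364.9 ± 85.5 CPM in Tri PD1+KLRG1+ and 276.7 ± 21.84 CPM in Tri PD1-KLRG1+ libraries. Its log2 fold changes were 0.33 ± 0.21 in KLRG1+ and 0.17 ± 0.19 in KLRG1- cells (edgeR adjusted p = 0.652 and 1), and the 95% intervals reached from -0.10 to 0.77 and from -0.23 to 0.58.

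Lat, the membrane scaffold phosphorylated by ZAP-70, showed the largest change of the 10 genes in KLRG1- cells, while in KLRG1+ cells Cd3g (0.82) and Ptprc (-0.75) exceeded it in size. It was at 316.1, 381.4, 308.5, 333.1 and 354.6 CPM in Tri PD1+KLRG1- libraries, against 642.7, 731.6, 759.4, 826.3 and 628.9 CPM in Tri PD1-KLRG1- libraries. The highest PD1+ library was well under the lowest PD1- library. Lat fell to 0.455 of its PD1- level (log2 fold change -1.14 ± 0.15, edgeR adjusted p = 2.57e-05), and the call held in 10 of 10 fits without 1 library. In KLRG1+ cells Lat was at 536.4, 387.2, 467.9, 380.1 and 406.6 CPM in PD1+ libraries, against 611.6, 672.5, 757.3 and 666.9 CPM in PD1- libraries. These groups did not overlap either, and the log2 fold change was -0.70 ± 0.15 (adjusted p = 0.0161). That call was less firm: it was lost in 7 of 9 fits without 1 library, namely without replicate 2, 3, 4 or 5 of Tri PD1+KLRG1+ or replicate 2, 3 or 4 of Tri PD1-KLRG1+, with an adjusted p of up to 0.0917, and also with no filter on low counts (0.166) and with only the groups compared (0.0789). Its log2 fold change lay between -0.78 and -0.59 over all settings tried.

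Ptprc, encoding CD45, the phosphatase that regulates Lck, was lower in PD1+ cells. In KLRG1- cells it was at 1242, 1575, 1236, 2044 and 1930 CPM in PD1+ libraries, against 2371, 2602, 2102, 3026 and 2466 CPM in PD1- libraries. No PD1+ library reached the lowest PD1- library, and the log2 fold change was -0.72 ± 0.14 (edgeR adjusted p = 0.00354). In KLRG1+ cells its values were 1146, 1770, 1653, 2065 and 1553 CPM in PD1+ libraries, against 2753, 1767, 2412 and 3213 CPM in PD1- libraries. Here PD1- replicate 2 fell inside the PD1+ range, and the log2 fold change was -0.75 ± 0.15 (adjusted p = 0.00615), with the call lost without Tri PD1-KLRG1+ replicate 1 (0.0771), with no name series term (0.0523) and with only the groups compared (0.111). Counts were summed over the gene, so the CD45 isoforms that T cells switch between were not separated.

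Summed markers of other cell types also differed by the PD-1 gate, mainly through 1 gene in each of the lists given here. The 9 myeloid markers, of cells that carry CD45 too, summed to 72.98 to 296.6 CPM in Tri PD1+KLRG1+ and 377.1 to 473.7 CPM in Tri PD1-KLRG1+ libraries, and to 64.54 to 135.9 CPM in Tri PD1+KLRG1- and 269.8 to 380.2 CPM in Tri PD1-KLRG1- libraries. Itgax made up most of the gap, at 43.6 ± 37.4 against 299 ± 36.4 CPM in KLRG1+ cells (not called) and 8.97 ± 4.24 against 198 ± 46.8 CPM in KLRG1- cells (the only one of the 9 called). Of the 9 genes' log2 fold changes, 5 were positive in KLRG1+ cells (median 0.10) and 4 in KLRG1- cells (median -0.01). In KLRG1+ cells Lyz2 averaged 45.1 CPM in PD1+ and 17.7 CPM in PD1- libraries, and Csf1r 14.7 and 0.99 CPM, neither called. Itgam and Cd68 moved with Itgax in both gates, neither called. Itgam averaged 20.8 CPM in PD1+ and 65.3 CPM in PD1- libraries of KLRG1+ cells, and 1.85 and 12.2 CPM in KLRG1- cells. Cd68 averaged 20.7 and 38.5 CPM in KLRG1+ cells, and 24.5 and 38.9 CPM in KLRG1- cells. Adgre1 was at 0 in 3 of these 4 groups. The gamma-delta T markers, of cells that also express CD3, summed to 134 to 435.7 CPM in Tri PD1+KLRG1+ and 53.69 to 74.55 CPM in Tri PD1-KLRG1+ libraries, and to 149.7 to 265.5 CPM in Tri PD1+KLRG1- and 74.09 to 98.71 CPM in Tri PD1-KLRG1- libraries. Of the 5, Tcrg-C2 alone was called and made up the gap in both gates (217 ± 101 against 40.8 ± 4.24 CPM in KLRG1+ and 200 ± 45.9 against 61 ± 9.55 CPM in KLRG1- cells), and Sox13 was at 0 in all 4 groups. Trdc had log2 fold changes of the other sign, -2.43 in KLRG1+ and -3.37 in KLRG1- cells, neither called. Of the 4 gamma-delta markers tested, 3 had positive log2 fold changes in KLRG1+ cells (median 0.47) and 1 in KLRG1- cells (median -0.89). Their part in the 4 calls was not tested.

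The 4 directions were the same within each set of library names. With only the libraries without an RNA number, the log2 fold changes of PD1+ over PD1- in KLRG1+ cells were 0.68 for Cd3g, 0.54 for Cd8a, -0.62 for Lat and -0.67 for Ptprc, and with only those that carry a number they were 1.24, 0.83, -0.78 and -0.85. The last set rests on Tri PD1-KLRG1+ replicate 4 as its only PD1- library. In KLRG1- cells the corresponding values were 0.67, 0.60, -1.14 and -0.86 without a number and 0.83, 0.40, -1.08 and -0.47 with one. In these smaller fits none of the 4 passed the edgeR test in KLRG1+ cells, and in KLRG1- cells Lat (adjusted p = 0.00675) and Ptprc (0.0383) passed without a number and none with one.

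Whether the PD-1 difference itself differed between KLRG1+ and KLRG1- cells was tested with an interaction term. None of the 10 members passed, nor did any of the 14059 genes (638 had an unadjusted p under 0.05 with edgeR, and DESeq2 called 197). Those 638 are no more than the share of 0.05 that would reach this without any difference. Lat was the member nearest to passing, with a PD-1 log2 fold change 0.44 ± 0.21 less negative in KLRG1+ than in KLRG1- cells (95% interval 0.00 to 0.88, edgeR adjusted p = 1).

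Ratios of 2 transcripts within a library do not depend on library scaling, and they separated the PD-1 gates. The ratio of Cd8b1 to Cd8a counts averaged 0.903 in PD1+ against 1.68 in PD1- libraries of KLRG1+ cells (geometric means, n = 5 and 4), and 0.838 in PD1+ against 1.37 in PD1- libraries of KLRG1- cells (n = 5 each). The log2 ratios differed by -0.90 and -0.71, and no PD1+ library overlapped a PD1- library of the same KLRG1 gate. The ratio of Cd247 to Cd3e counts averaged 0.217 in PD1+ against 0.389 in PD1- libraries of KLRG1+ cells, and 0.197 in PD1+ against 0.343 in PD1- libraries of KLRG1- cells, with log2 differences of -0.84 and -0.80 and no overlap. Each of these 4 differences had the smallest 2-sided exact permutation p that its design allows (0.0159 for 5 against 4 and 0.00794 for 5 against 5 libraries), and the Benjamini-Hochberg p over the 14 ratio tests was 0.0556 for each, above 0.05. In the other 10 tests, of KLRG1 gates and of treatment, the exact permutation p ran from 0.143 to 1 and all groups overlapped. The transcripts differ in length, so a ratio compares groups and not the amounts of 2 proteins.

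**Figure D3:**
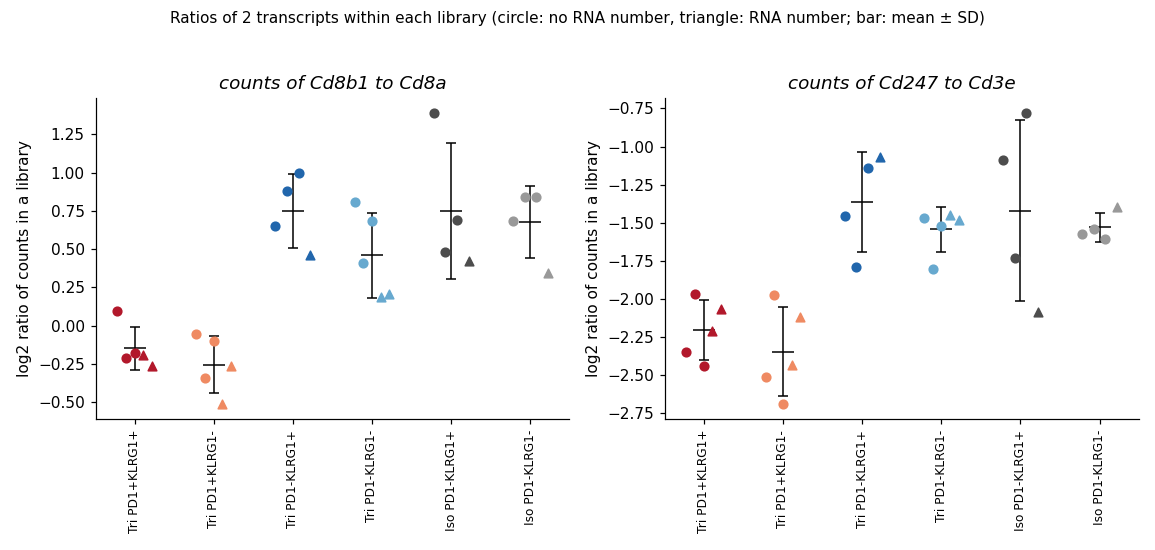
Log2 ratio of Cd8b1 to Cd8a counts and of Cd247 to Cd3e counts in each of 27 libraries, by group, with mean and SD; triangles are libraries with an RNA number. The 10 PD1+ libraries at the left lie below the Tri PD1- libraries of their KLRG1 gate in both panels, while the PD1- groups of Tri and Iso overlap.

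Further genes of antigen-receptor signalling were followed as 46 genes in 6 lists. In PD1+ against PD1- cells under Tri, 1 of the 46 was called in each gate, both lower, against 1.2% of all genes in KLRG1+ and 1.56% in KLRG1- cells. In KLRG1+ cells it was Dgka, a diacylglycerol kinase that limits the signal, at 223, 138.9, 145.4, 129.2 and 193.4 CPM in PD1+ libraries, against 299.6, 362.3, 356.4 and 405.8 CPM in PD1- libraries. The groups did not overlap (log2 fold change -1.19 ± 0.27, edgeR adjusted p = 0.0235), though the call was kept in only 1 of 9 fits without 1 library, the one that left out Tri PD1+KLRG1+ replicate 1 (adjusted p between 0.025 and 0.0957). In KLRG1- cells it was Fyn, the Src-family kinase beside Lck, at 404.9 ± 59.51 CPM in PD1+ and 658.7 ± 64.85 CPM in PD1- libraries (-0.76 ± 0.20, adjusted p = 0.0469). Fyn passed in none of 10 fits without 1 library (0.0756 to 0.161).

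Most of the 46 genes had negative values without passing: 12 were positive in KLRG1+ cells and 13 in KLRG1- cells. The median log2 fold change over the 46 was -0.36 and -0.34, against -0.01 and 0.06 over all genes. For the 12 adaptors, several of which link LAT to effectors, the medians were -0.67 and -0.76, with 2 and 1 of 12 positive and none called. Among the 8 Tec kinases and second-messenger genes the medians were -0.45 and -0.36, and 1 of 8 was positive in each gate. The list of Fcer1g and Syk, an alternative chain and kinase, had medians of 2.62 and 0.43, with neither gene called. Both genes were positive in KLRG1+ cells, while in KLRG1- cells Fcer1g was positive and Syk was not. Fcer1g averaged 59.7 CPM in PD1+ and 12.4 CPM in PD1- libraries of KLRG1+ cells (2.18, edgeR adjusted p = 0.174). In KLRG1- cells it averaged 59.9 and 11 CPM (2.39, adjusted p = 0.073). The constant regions of the receptor chains, Trac, Trbc1 and Trbc2, had medians of -0.07 and -0.04, with 1 of 3 positive in each gate and none called. In KLRG1- cells 1 of the 3 had an unadjusted edgeR p under 0.05, and in KLRG1+ cells none did. Trac, for example, averaged 1137 ± 189 CPM in Tri PD1+KLRG1+ and 1168 ± 152.5 CPM in Tri PD1-KLRG1+ libraries (-0.07 ± 0.17, adjusted p = 1), unlike Cd3g in the same cells.

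**Figure D4:**
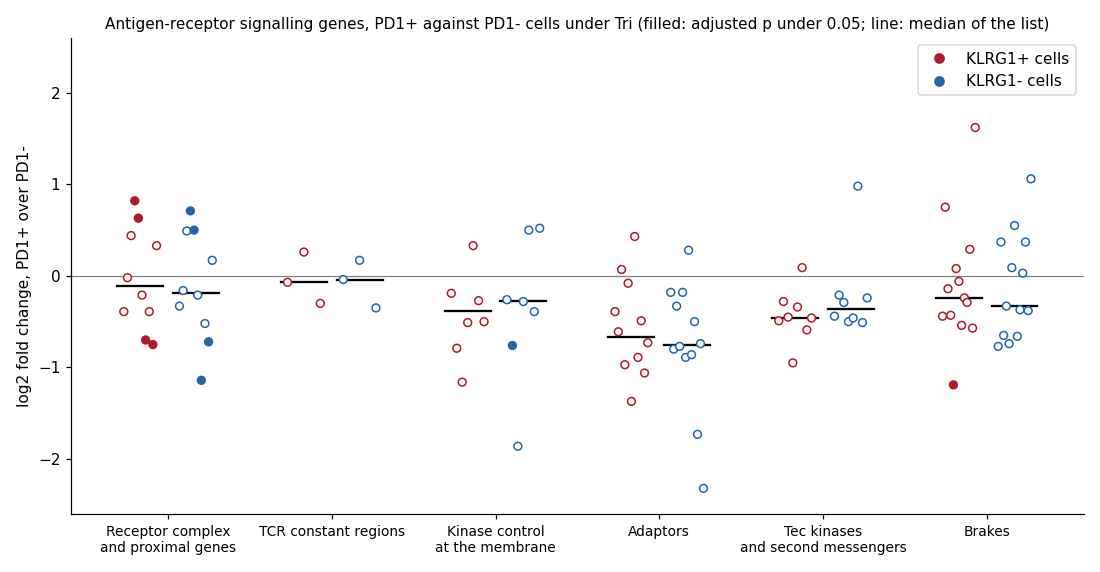
Log2 fold change in PD1+ over PD1- cells under Tri for the 10 genes and for 5 lists of further signalling genes, each point a gene and each line the list's median; filled points have an edgeR adjusted p under 0.05, and 3 values beyond the axis (Cd4 in both gates and Trat1 in KLRG1+ cells, all near 0 CPM in a group) are not drawn. The adaptors have the lowest medians, -0.67 and -0.76, with no filled point.

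The KLRG1 gate left the receptor complex without a called difference under Tri. None of the 10 members passed in PD1+ cells, against 0.0569% of all genes, and their libraries all overlapped (2.41% of all genes did not). None passed in PD1- cells, where no gene was called (0%, with 675 genes at an unadjusted p under 0.05 in edgeR and 192 called by DESeq2). Those 675 are no more than the share of 0.05 of the 14059 genes that would reach this without any difference. Klrg1 itself was not called in PD1- cells, at 245.3 CPM in KLRG1+ and 19.25 CPM in KLRG1- libraries (log2 fold change 3.65 ± 0.73, edgeR adjusted p = 0.222). A lack of calls in PD1- cells is therefore not evidence of equal levels. The largest member value in PD1+ cells was that of Lat, at 435.6 ± 66.08 CPM in KLRG1+ and 338.7 ± 29.7 CPM in KLRG1- libraries (SD, n = 5 each, log2 fold change 0.36 ± 0.14, edgeR adjusted p = 0.484). In PD1- cells it was that of Cd8a, whose 4 KLRG1+ libraries (1125 to 1235 CPM) lay below the 5 KLRG1- libraries (1377 to 1772 CPM), at -0.33 ± 0.12 (adjusted p = 0.993). It was the only member without overlap there, against 1.7% of all genes. The 95% intervals of the other members bound the KLRG1 difference between -0.47 and 0.51 in PD1+ cells and between -0.60 and 0.60 in PD1- cells. None of the 46 further genes was called in either gate under Tri.

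Under Iso, the same KLRG1 comparison had no called member either, against 8.66% of all genes, of which most were lower in KLRG1+ cells (7.43% of all genes). No member was without overlap there, against 16.8% of all genes. The KLRG1+ libraries held 5832 to 9427 genes with a count, against 14652 to 15288 in the KLRG1- libraries. The median log2 fold change over all genes was -0.52. The part of gene detection in these shares was not tested. Lck was at 2604, 2684, 3702 and 1552 CPM in Iso PD1-KLRG1+ libraries, against 1994, 1154, 1548 and 2255 CPM in Iso PD1-KLRG1- libraries. The groups overlapped (0.49 ± 0.17, edgeR adjusted p = 0.072), with replicate 4 the lowest of the KLRG1+ and the highest of the KLRG1- libraries. Leaving out Iso PD1-KLRG1+ replicate 4 gave 0.66 (adjusted p = 0.00868) and leaving out Iso PD1-KLRG1- replicate 4 gave 0.64 (0.0238). Over 10 other settings the adjusted p ran from 0.00275 to 0.541, and with those replicate 4 libraries alone the value was -0.51. Cd8a was at 961.5 ± 178.7 CPM in KLRG1+ and 1155 ± 111.3 CPM in KLRG1- libraries (SD, n = 4 each, -0.37 ± 0.13, adjusted p = 0.0668), with a value of -0.33 for the same gates under Tri. It was under 0.05 without Iso PD1-KLRG1+ replicate 3 (adjusted p = 0.0315) or Iso PD1-KLRG1- replicate 2 (0.0439). Cd247 was under it without Iso PD1-KLRG1+ replicate 4 (0.0336), and Cd3d and Cd8b1 without Iso PD1-KLRG1+ replicate 1 (0.0325 and 0.0445). Of the 46 further genes 3 were called, all higher in KLRG1+ cells, against 8.66% of all genes in either direction and 1.24% higher. They were Sh2d2a, the adaptor that binds Lck (1.11 ± 0.22, edgeR adjusted p = 0.00225), Sla, an adaptor that lowers receptor levels (1.22 ± 0.25, 0.00247), and Dok2, an adaptor that dampens the signal (1.34 ± 0.38, 0.024). Sla was at 488.6, 704.6, 654.5 and 249.3 CPM in KLRG1+ libraries, against 216.7, 183.9, 184 and 243.6 CPM in KLRG1- libraries, just without overlap. Sh2d2a and Sla were called in 8 of 8 fits without 1 library, but not with sample weights (adjusted p = 0.392 and 0.299) or with only the groups compared (0.136 and 0.0537). Dok2 was lost without Iso PD1-KLRG1+ replicate 1 or replicate 1, 2 or 3 of Iso PD1-KLRG1- (adjusted p up to 0.1) and was called in 6 of 10 other settings. In the RNA-number libraries alone, which are replicate 4 of both groups, the log2 fold changes were 0.07 for Sh2d2a, 0.06 for Sla and -1.46 for Dok2. The myeloid markers summed to 10.73 to 3373 CPM in these KLRG1+ and 157 to 1690 CPM in these KLRG1- libraries, and Tcrg-C2 was called lower (40.5 ± 38.8 against 91.7 ± 21.4 CPM, edgeR adjusted p = 0.0192). Their part in the 3 calls was not tested.

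Treatment was compared in PD1- cells, where no member passed in KLRG1- cells (0.804% of all genes called) or in KLRG1+ cells (6.08%, as 5.46% higher and 0.619% lower). In KLRG1- cells all 10 members had positive log2 fold changes of Tri over Iso, with a median of 0.26 against -0.09 over all genes. Ptprc had the largest, at 2371, 2602, 2102, 3026 and 2466 CPM in Tri libraries, against 1536, 1240, 1440 and 2305 CPM in Iso libraries (0.55 ± 0.15, edgeR adjusted p = 0.0918). Iso replicate 4 was inside the Tri range, and the other 3 Iso libraries were below it. Ptprc was under 0.05 in 4 of 10 other settings (adjusted p from 0.000186 to 1 over the 10), and without Iso PD1-KLRG1- replicate 4 (0.0476). The myeloid markers summed to 269.8 to 380.2 CPM in these Tri and 157 to 1690 CPM in these Iso libraries. Of the 9, 2 had positive log2 fold changes (median -2.44), and none was called. Itgax averaged 198 CPM in Tri and 28.9 CPM in Iso libraries, while Lyz2 averaged 38.1 and 276 CPM. Their part in the Ptprc values was not tested. Cd8a and Cd3e had no overlap (2 of 10 members, against 6.51% of all genes). Cd8a averaged 1500 ± 161.1 CPM in Tri and 1155 ± 111.3 CPM in Iso libraries (0.33 ± 0.12, adjusted p = 0.319). Cd3e averaged 1075 ± 57.94 CPM in Tri and 869.8 ± 65.56 CPM in Iso libraries (0.27 ± 0.17, adjusted p = 0.888).

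In KLRG1+ cells, 8 of 10 members had positive values, with a median of 0.24 against 0.34 over all genes. Cd3d averaged 970.8 ± 273 CPM in Tri and 710.6 ± 187.7 CPM in Iso libraries (SD, n = 4 each, 0.54 ± 0.17, edgeR adjusted p = 0.0595), and Ptprc 2536 ± 609 CPM in Tri and 1881 ± 176.1 CPM in Iso libraries (0.48 ± 0.16, adjusted p = 0.0676). Groups overlapped for every member, while 9.04% of all genes had no overlap. Without Iso PD1-KLRG1+ replicate 1, Cd3d, Cd8b1 and Ptprc were called (adjusted p = 0.028, 0.0333 and 0.0428), and without Tri PD1-KLRG1+ replicate 2 Ptprc was (0.0285). Whether the KLRG1 difference changed with treatment was tested by an interaction, called for no member against 3.59% of all genes (3.41% in the positive direction), and nearest for Lck (-0.58 ± 0.23, adjusted p = 0.172, and 0.0448 without Iso PD1-KLRG1+ replicate 4). Over 10 other settings that adjusted p ran from 0.0236 to 0.601.

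Of the 46 further genes, 2 were called for treatment in KLRG1- cells, against 0.804% of all genes. Sh2d2a was at 1286, 1250, 1247, 1173 and 1169 CPM in Tri libraries, against 613.4, 437.3, 511 and 570.1 CPM in Iso libraries, far apart and 2.25-fold higher (log2 fold change 1.17 ± 0.22, edgeR adjusted p = 0.00635). Fcer1g, the Fc receptor gamma chain, which can stand in for zeta in the receptor of some T cells and is a marker of NK and myeloid cells, was at 11.84, 10.31, 7.676, 19.7 and 5.386 CPM in Tri libraries, against 137.5, 91.45, 92.12 and 155 CPM in Iso libraries. It fell in KLRG1- cells (-3.48 ± 0.71, adjusted p = 0.0123, 0.0534 without Tri PD1-KLRG1- replicate 2). The NK and innate lymphoid markers, Fcer1g among them, summed to 13.16 to 25.66 CPM in those Tri and 127 to 182.3 CPM in those Iso libraries. Fcer1g itself made up most of that gap, at a mean of 11 CPM in Tri and 119 CPM in Iso libraries. Klrb1c, the only other marker of the list tested, averaged 8.39 and 33.6 CPM and was not called. Ncr1 and Klra8 averaged only 0.9453 and 1.899 CPM in the Iso group and were at 0 in the Tri group. Col1a1 was called lower there as well (0.0793 CPM in Tri against 14.3 CPM in Iso libraries, edgeR adjusted p = 0.0278). The 9 myeloid markers had a median log2 fold change of -2.44 in the same comparison, with 2 positive and none called. Their part in the Fcer1g result was not tested.

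In KLRG1+ cells 4 of the 46 were called for treatment, against 6.08% of all genes. Fcer1g was again lower under Tri (12.42 ± 5.86 CPM against 134.9 ± 142.8 CPM under Iso, SD, n = 4 each, -3.54 ± 0.80, edgeR adjusted p = 0.00825), though Iso replicate 3, the shallow library, had no Fcer1g count. Cblb, a ubiquitin ligase that restrains the receptor, rose (1.25 ± 0.29, adjusted p = 0.00973), with 114.7, 80.93, 148 and 155.9 CPM in Tri and 62.5, 56.75, 21.46 and 58.66 CPM in Iso libraries, which did not overlap. Ptpn22, a phosphatase that opposes Lck (0.80 ± 0.20, adjusted p = 0.0145), and Trac (0.59 ± 0.18, adjusted p = 0.0465) were also called higher. Trac was kept in 2 of 8 fits without 1 library and in 1 of 10 other settings. Ptpn22 was lost without Iso PD1-KLRG1+ replicate 4 or Tri PD1-KLRG1+ replicate 1 (adjusted p up to 0.0937), and was called in 4 of 10 other settings. Cblb held in 8 of 8 but in 5 of 10 other settings, being lost with no filter, without the RNA-number libraries, with the random block, with sample weights and with only the groups compared (adjusted p from 0.0669 to 0.713). Fcer1g was lost without the RNA-number libraries (0.115), with sample weights (0.5) and with only the groups compared (0.52). In this comparison the myeloid marker Lyz2 (17.7 CPM in Tri against 504 CPM in Iso libraries, edgeR adjusted p = 0.00695) and the stroma marker Col1a1 (1.98 against 306 CPM, 0.0301) were called lower too, with list medians of -4.02 for myeloid and -6.31 for tumour and stroma markers. Their part in the 4 calls was not tested.

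The naming of the libraries moved with 1 member. Cd3d was lower in the 9 libraries with an RNA number than in the 18 without (log2 difference -0.56 ± 0.10, edgeR adjusted p = 0.0131, against 0.982% of all genes called). Ptprc (0.31 ± 0.09, adjusted p = 0.0944) and Cd8b1 (-0.37 ± 0.11, adjusted p = 0.101) had the next smallest p-values, without passing. What the numbers stand for is not given in the sources used here.

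The members did not vary as a block from library to library. Over the 27 libraries, which share their group differences and name series, log2 CPM of Cd3g correlated with that of Cd8a at r = 0.92, with Cd3e at 0.85 and with Lat at -0.67. After each group's mean was removed these became 0.41, 0.68 and 0.24, so the negative value of Cd3g and Lat was not present within groups. Within groups the highest value was that of Cd3d with Cd8b1 (0.81), and Cd3g went with Cd3d at 0.79 and Cd8b1 at 0.76, while Cd3g and Ptprc ran opposite (-0.63). Only group means were removed, so the name series remained in these values. By RNA number the log2 differences were -0.56 for Cd3d, -0.37 for Cd8b1, -0.28 for Cd3g and 0.31 for Ptprc, with Cd3d alone called. The part of the name series in the correlations was not tested. Outside the members, the genes whose log2 CPM was most like that of Cd8a over the 27 libraries, in a search of 8765 genes averaging 10 CPM or more, were Capg (r = 0.935), Adgrg1 (0.917) and Nrn1 (0.899). For Cd3e they were Serpina3g (0.874), the inhibitory receptor gene Lag3 (0.874) and Gipc2 (0.841). Ptprc varied most like Gbp7 (0.887), Sp100 (0.866) and Gbp4 (0.863), which are interferon-induced genes, and Lck most like Frmd8 (0.859), Bin2 (0.847) and Armc7 (0.846).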

How the data were processed

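RNA-seq read counts per gene were used as deposited by the authors in 1 table of 27 libraries, raw and not normalized. Per the submitters' processing notes, DESeq2 1.26.0 was used upstream; the sources used here name no aligner, counter, build or strand setting. A GENCODE M21 name table gave symbols to 47224 of 47729 IDs. Groups and name series were taken from the labels.

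Counts were tested with edgeR 4.0.16 in R 4.3.3 (TMM scaling, filterByExpr at a minimum count of 10, robust quasi-likelihood F test, group means plus name series, 20 residual degrees of freedom, Benjamini-Hochberg threshold 0.05 over 14059 genes). CPM are counts scaled to a common library total, and an SE is the size of the log2 fold change over the root of F. Ratios had 0.5 added to each count and were compared by 2-sided exact permutation. The procedure was tested on simulated data in which all libraries shared the spread of each gene, so unequal spread between groups was not covered. Alternatives were RLE scaling, no filter, leaving out the name series term, fitting each name series on its own, a replicate block, sample weights (limma 3.58.1), only the groups compared, DESeq2 1.42.0, and leaving out 3 or single libraries. The members and gene lists were chosen with earlier results of these data known. The text names every member, each called gene of the 46, and the 3 genes most like Cd3e, Cd8a, Lck and Ptprc, with others as examples of a list. Counting error limits the shallow library most.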

Additional observations from a re-analysis of the deposited data

Results flagged for a closer look

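Of 72 sets of 4 or 5 libraries checked for a library far from its group, 4 held one, where 3.6 would be found by chance at 1 in 20. Cd247 was at 438.6 CPM in Tri PD1-KLRG1+ replicate 3, with the other 3 libraries at 385.6 to 393.5 CPM. Zap70 was at 426.7 CPM in Tri PD1+KLRG1- replicate 3, with the nearest other library at 340.7 CPM. The ratio of Cd247 to Cd3e was 0.287 in Tri PD1-KLRG1- replicate 2, with the nearest at 0.348, and the ratio of Cd8b1 to Cd8a was 1.07 in Tri PD1+KLRG1+ replicate 1, with the nearest at 0.885.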

How the results depend on the processing

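The 4 members called in each PD-1 comparison kept their direction under all alternatives run. In KLRG1+ cells 0 were called within either name series and 1, Cd8a, with only the groups compared, and Lat was lost with no filter (adjusted p = 0.166); in KLRG1- cells Cd8a was lost with no filter (0.0572), and 2 members were called without and 0 with an RNA number. For KLRG1 under Iso, where 0 were called, RLE scaling, the libraries without an RNA number and DESeq2 each gave 1, and leaving out 3 libraries gave 2. For Tri against Iso in KLRG1- cells, no filter, sample weights, DESeq2 and leaving out 3 libraries each gave 1, Ptprc. For the treatment interaction DESeq2 gave 1, Lck (adjusted p = 0.0236). Dok2 in KLRG1 under Iso reversed to -1.46 in the RNA-number libraries alone. Without 1 library at a time, 3 to 4 members were called in each PD-1 comparison, 0 to 3 for Tri against Iso in KLRG1+ cells, 0 to 1 for it in KLRG1- cells, 0 to 2 for KLRG1 under Iso, 0 to 1 for the treatment interaction and 0 to 0 elsewhere. The 4 PD-1 differences in log2 ratio ran from -0.99 to -0.63. The cause of these changes was not tested.

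Same-numbered libraries did not deviate together (31 pairs, r from -0.279 to 0.129, 2 over 0.1), and 4 of 27 libraries correlated best with their own number, so the numbers are not treated as pairs. With a replicate block 1 member was called for KLRG1 under Iso (Cd8a, adjusted p = 0.0497), and with the block as a random effect 1 for Tri against Iso in KLRG1+ cells (Ptprc, 0.0122).

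RLE scaling put the all-gene median (log2) at -0.37, against -0.52 with TMM, for KLRG1 under Iso, and at 0.15, against 0.34, for Tri against Iso in KLRG1+ cells. Over all genes, edgeR called 169 and 219 in the PD-1 comparisons of KLRG1+ and KLRG1- cells, against 706 and 524 by DESeq2, 547 and 2018 with sample weights, 334 and 390 with no filter and 359 and 341 without 3 libraries. With only the groups compared it called 803 in KLRG1- cells, and with only RNA-number libraries 1 and 7. For KLRG1 under Iso (1218) and Tri against Iso in KLRG1+ cells (855), sample weights left 13 and 5, and DESeq2 gave 2326 and 1947.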
